A study of Mus musculus with 4 samples.

Results

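Spermatogonia that carry Crabp1 were described in a single-cell RNA library of Znhit1 knockout mouse testis. They were taken from the library labelled Znhit1_KO at postnatal day 35, and are called the Crabp1 gate here. The gate held 334 of 4428 germ barcodes, which is 7.54% (exact binomial 95% interval 6.78 to 8.36), and of 8121 barcodes kept in all. A barcode stands for 1 captured cell, and a UMI (unique molecular identifier) for 1 captured RNA molecule. A barcode was kept with at least 1000 UMIs, at least 500 genes and at most 10% of UMIs from mitochondrial genes. It was a germ barcode with at least 4 UMIs of Ddx4 and Dazl together, both germ-cell RNA-binding proteins. It was in the gate with at least 3 UMIs of Crabp1, fewer than 8 UMIs summed over Zbtb16, Glis3, Trim71, Egr4, Gfra1 and Etv5, and Sycp1 below 1000 CPM (UMIs of a gene per 1000000 UMIs). The study made 4 libraries, 1 each of Znhit1 knockout and CTRL testis at postnatal days 35 and 16, with a droplet kit that counts RNA from its 3' end (10x Chromium, v3.1). Counts of the other 3 were not analysed here, so no value compares genotypes or ages. The sources used here do not give how the knockout was driven, which exon was removed or how many animals were pooled.

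The gate was set against the other 4094 germ barcodes, and against 3 classes into which these fall. The undifferentiated-type class held 185 barcodes with 8 or more UMIs of the 6 summed genes. The Crabp1-low class held 810 barcodes with fewer than 3 Crabp1 UMIs, the 6 genes below 8 UMIs and Sycp1 below 1000 CPM. The Sycp1-high class held the remaining 3099 barcodes. A ratio is the summed CPM of the gate over that of the other class, followed by its exact 95% interval, which covers counting error only. With 1 library there is no replicate and no test, and every gene was measured in the same barcodes that chose the members, so all values are descriptions.

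Spermatogonia are the mitotic germ cells at the base of the seminiferous tubule. Undifferentiated spermatogonia, which include the stem cells, respond to GDNF through GFRA1 and RET. Retinoic acid turns them into differentiating spermatogonia, which gain the receptor KIT and STRA8, pass through several mitotic divisions with D-type cyclins, and end at meiotic entry, where retinoic acid raises STRA8 again. CRABP1 is a cytoplasmic retinoic acid binding protein. ZNHIT1 belongs to SRCAP, a remodelling complex that exchanges H2A for its variant H2A.Z in nucleosomes.

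The promoters of Stra8 and Crabp1 are shown because the first is the textbook retinoic acid response gene of these cells and its level varied within the gate, while the second defines the gate. Each runs 5′ to 3′ on the gene's strand from 250 bases before to 50 bases after the start of the RefSeq gene (build GRCm38.p6), and capitals mark the retinoic acid receptor half-site AGGTCA or its reverse TGACCT, searched on both strands. Stra8 lies at chr6:34920698-34920997 (plus strand) and Crabp1 at chr9:54764498-54764797 (plus strand).
Stra8: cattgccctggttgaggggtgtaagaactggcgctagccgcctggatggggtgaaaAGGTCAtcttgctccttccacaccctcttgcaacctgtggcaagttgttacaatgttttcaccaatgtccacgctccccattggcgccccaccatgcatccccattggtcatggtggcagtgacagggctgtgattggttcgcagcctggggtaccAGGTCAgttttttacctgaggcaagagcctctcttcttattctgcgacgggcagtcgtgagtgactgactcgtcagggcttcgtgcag
Crabp1: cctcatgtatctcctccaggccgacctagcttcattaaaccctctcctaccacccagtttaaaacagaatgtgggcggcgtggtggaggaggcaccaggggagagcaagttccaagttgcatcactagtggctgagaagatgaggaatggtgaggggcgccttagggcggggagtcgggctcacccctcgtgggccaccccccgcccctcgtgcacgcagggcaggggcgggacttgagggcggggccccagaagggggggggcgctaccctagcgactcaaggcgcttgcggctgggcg
The Stra8 window held 2 copies of AGGTCA, with first bases at -194 and -38 from the start, and the Crabp1 window held none. Of 32851 promoters of this length, 5340 (16.3%) held the half-site on either strand. A match is a run of letters and not a measured binding site.

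The library held 72459160 UMIs in 15306 barcodes. The gate held 3652241 UMIs, with 1278 to 71226 UMIs per barcode, a median of 9783 UMIs and 3915 genes. The other germ barcodes were shallower, with a median of 5595 UMIs and 2712 genes, and the gate's UMI minimum for Crabp1 selects deeper barcodes. Scrublet called 13 gate barcodes (3.89%) and 166 other germ barcodes (4.05%) doublets. These were kept. Each of the other libraries shared 57 to 81 barcode sequences with this one, of which 1 or 2 were in the gate. One gate barcode stood apart. It was the deepest, with 71226 UMIs or 1.95% of all gate UMIs, and 2.32% of its UMIs came from the list of pachytene and later genes, against a gate median of 0.0662%. It held 468 UMIs of Ldhc, 4 of Crabp1 and none of Kit, and it was not called a doublet. Values that it moved by over 1.5 times are given with and without it, and the description of variation within the gate leaves it out.

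The levels of the rule's genes depend on the choice of barcodes. Crabp1 ran from 56.2 to 2347 CPM over gate barcodes with a median of 433 CPM, and over the other germ barcodes from 0 to 1502 CPM with a median of 0. Summed over barcodes it had 435 CPM in the gate, 126 in undifferentiated-type, 86.2 in Crabp1-low and 27.8 CPM in Sycp1-high barcodes. Of the 6 summed genes, Trim71, an RNA-binding ubiquitin ligase, had 82.4 CPM in the gate, against 235 CPM in undifferentiated-type barcodes. Zbtb16, the stem-cell transcription factor PLZF, had 54.8 CPM against 224 CPM. Glis3 had 9.31 against 397 CPM and Gfra1, the GDNF co-receptor, 1.64 against 111 CPM. The gate therefore kept some Trim71 and Zbtb16 and nearly no Gfra1. Over all other germ barcodes, Trim71 and Zbtb16 were higher in the gate, with ratios of 2.68 and 1.74. Egr4, Etv5, Glis3 and Gfra1 were lower in that comparison, with ratios of 0.747, 0.392, 0.209 and 0.146.

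The thresholds cut through a continuous range of levels. The 105 gate barcodes with exactly 3 Crabp1 UMIs had 164 CPM of Kit, 657 of Uchl1, 278 of Dmrt1 and 254 CPM of Stra8. The 147 barcodes just outside, with 2 Crabp1 UMIs, had 172 CPM of Kit, 489 of Uchl1, 271 of Dmrt1 and 191 CPM of Stra8, at a median depth of 7073 UMIs against 8744 UMIs inside. At the limit on the 6 genes, 14 barcodes with 7 UMIs had 295 CPM of Crabp1, 219.5 of Kit and 503 of Stra8, and 9 barcodes with 8 UMIs had 363 CPM of Crabp1, 267 of Kit and 603 of Stra8. At the Sycp1 limit, 14 barcodes from 900 to 1000 CPM had 448 CPM of Crabp1 and 212 of Kit, and 15 barcodes from 1000 to 1100 CPM had 487 CPM of Crabp1 and 208 of Kit.

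The named markers of differentiating spermatogonia were present. Every gate barcode held a UMI of at least 1 of Uchl1, Dmrt1, Kit, Stra8, Sohlh1 and Dmrtb1, 137 barcodes (41.0%) held 5 of the 6 and 57 (17.1%) held all 6. Uchl1, a ubiquitin hydrolase of spermatogonia, ran from 0 to 2677 CPM over gate barcodes with a median of 594, and from 0 to 3094 CPM over the other germ barcodes with a median of 0. The ranges overlapped and most of the other germ barcodes lay below the gate's middle. Its summed level was 659.9 CPM (634 to 687) in the gate, 635 in undifferentiated-type, 283 in Crabp1-low and 83.4 CPM in Sycp1-high barcodes, a ratio over the other germ barcodes of 3.83 (3.65 to 4.02).
Dmrt1, a transcription factor that holds spermatogonia in the mitotic programme, ran from 0 to 954 CPM in gate barcodes with a median of 278, and in the others from 0 to 1290.3 CPM with a median of 0. Its summed level was 302 CPM (284 to 320.4) in the gate and 106 CPM in the others. Both Uchl1 and Dmrt1 stood at nearly the same level in the gate as in undifferentiated-type barcodes, with ratios of 1.04 (0.978 to 1.10) and 1.04 (0.949 to 1.14).

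Kit was more than 2-fold higher in the gate than in undifferentiated-type barcodes, and Stra8 was higher by less than 2-fold. Kit ran from 0 to 701 CPM in gate barcodes with a median of 144, and from 0 to 913 CPM in the others with a median of 0. Summed, Kit had 172 CPM (159 to 186) in the gate, 80.6 in undifferentiated-type, 105 in Crabp1-low and 31.9 CPM in Sycp1-high barcodes. The ratio was 2.14 (1.84 to 2.49) over the undifferentiated-type and 3.43 (3.12 to 3.76) over all other germ barcodes. Kit is also a gene of Leydig cells, the steroid-making cells between the tubules, and 470 Leydig-type barcodes had 203 CPM.
Stra8 had a median of 169.8 CPM over gate barcodes and a highest value of 1301, against a median of 0 and a highest value of 2944 in the others. The highest Stra8 values thus lay outside the gate. Its summed level was 275 CPM (258 to 292) in the gate, 199 in undifferentiated-type, 205 in Crabp1-low and 135 CPM in Sycp1-high barcodes. The ratio was 1.38 (1.24 to 1.53) over the undifferentiated-type barcodes. Over all other germ barcodes it was 1.78 (1.66 to 1.91), and 1.24 when every barcode was thinned to 3000 UMIs.

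**Figure D1:**
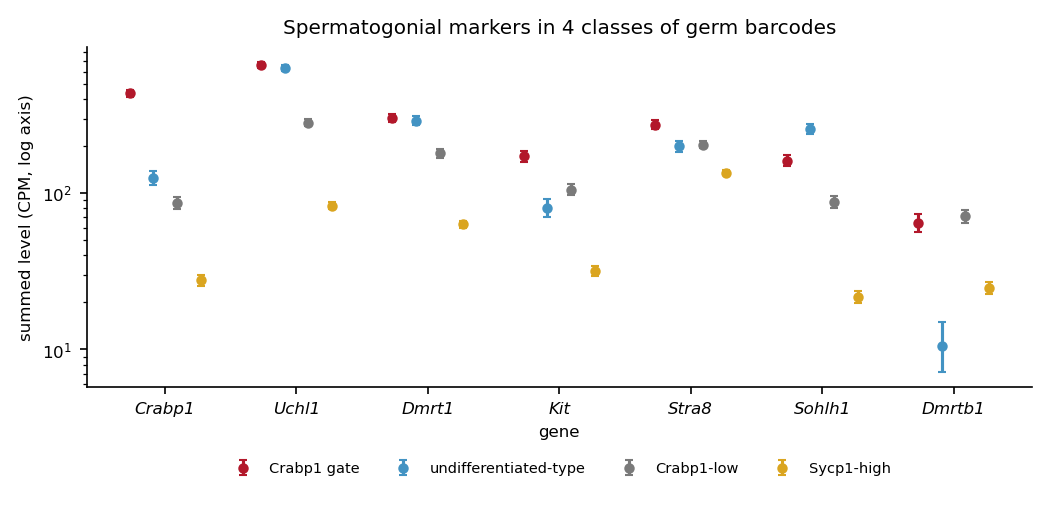
Summed levels in CPM on a log axis of 7 spermatogonial genes in the Crabp1 gate and 3 other classes of germ barcodes, with exact Poisson 95% intervals as bars. Uchl1 and Dmrt1 lie together in the gate and in undifferentiated-type barcodes, Kit is higher in the gate at 172 against 80.6 CPM, and Dmrtb1 is higher at 64.9 against 10.6 CPM. Crabp1 is a gene of the rule.

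Shares of barcodes with a UMI gave the same order at equal depth. After thinning to 3000 UMIs, Uchl1 was detected in 81% of 331 gate barcodes, in 79.5% of 185 undifferentiated-type, 49.4% of 711 Crabp1-low and 19.5% of 2931 Sycp1-high barcodes. Leydig-type barcodes, which should lack it, gave 2.99%. Unthinned, the share was 97.3% in the gate at a median of 9783 UMIs and 10.0% in Leydig-type barcodes at a median of 9332 UMIs. Stra8 was detected in 42.3% of thinned gate barcodes, 27% of undifferentiated-type, 40.4% of Crabp1-low, 26.4% of Sycp1-high and 0.855% of Leydig-type barcodes. The unthinned shares were 71.3% in the gate and 4.47% in Leydig-type barcodes. The Stra8 shares of gate and Crabp1-low barcodes were thus within 2 percentage points at equal depth.

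Of the 20 genes listed for differentiating spermatogonia, 8 were at least 2-fold higher in the gate than in the other germ barcodes, 4 at least 2-fold lower and 8 in between. Over all 17403 genes with at least 20 UMIs in both together, 2787 (16%) were 2-fold higher and 2777 (16%) 2-fold lower. The list's median log2 ratio was 0.42, against 0.05 for all genes. Besides Uchl1, Dmrt1 and Kit, the higher ones were Lin28a, an RNA-binding protein that restrains let-7 (128 against 34.2 CPM), Sohlh1 (162 against 56.2) and Dmrtb1 (64.9 against 32.2), both transcription factors of differentiation, Mageb4 (141 against 50.1) and Sall4, a zinc-finger factor (51.2 against 19.8 CPM). Lin28a was uneven, with a median of 0 over gate barcodes, a highest value of 6136 CPM and no UMI in 64.1% of them. Its median over undifferentiated-type barcodes was 68.3 CPM. Without the deep barcode, which held 51 of the 237 Dmrtb1 UMIs, the ratio of Dmrtb1 was 1.61 and 7 of the 20 genes were 2-fold higher. The lower ones were Ly6k (56.4 against 522 CPM), Tex101 (140.2 against 902 CPM), both surface proteins that persist into spermatocytes, and the low genes Ctcfl (2.74 against 9.44) and Tktl1 (17.5 against 38.6 CPM). Members of the list thus lay in both directions. Over undifferentiated-type barcodes, without the deep barcode, the ratios were 0.659 for Mageb4, 0.419 for Sall4 and 1.41 for Lin28a. Over the Sycp1-high barcodes 11 of the 20 were 2-fold higher and 4 lower, where 3798 (23.4%) of all 16237 genes were higher and 2778 (17.1%) lower. Over the undifferentiated-type barcodes 3 of the 20 were 2-fold higher and 3 lower, beside 7.90% and 11.0% of all genes. The list's median log2 ratio there was -0.175. Over the Crabp1-low barcodes 2 were higher and 3 lower, beside 6.05% and 14.1% of all genes, with a median of 0.42.

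Dmrtb1 and Sohlh1 ran in opposite directions against the undifferentiated-type barcodes. Dmrtb1, also called DMRT6, which acts late in the differentiating divisions of the mouse, had 64.9 CPM (56.9 to 73.7) in the gate against 10.6 CPM (7.19 to 15) in undifferentiated-type barcodes, a ratio of 6.13 (4.21 to 9.23). It did not differ from the Crabp1-low barcodes beyond counting error, with a ratio of 0.910 (0.773 to 1.07). Without the deep barcode its gate level was 51.9 CPM, and its ratio over the undifferentiated-type barcodes 4.91. Sohlh1 had 162 CPM (149 to 175) against 258 CPM (240.0 to 277), a ratio of 0.627 (0.562 to 0.699). Rhox13, an X-linked homeobox gene of germ cells, had 68.5 CPM in the gate, 22.9 in undifferentiated-type and 96.8 CPM in Crabp1-low barcodes. Esx1, another X-linked homeobox gene, had 107, 55.6 and 149 CPM in the same classes. Both were thus highest in the Crabp1-low barcodes of these 3 classes.

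**Figure D2:**
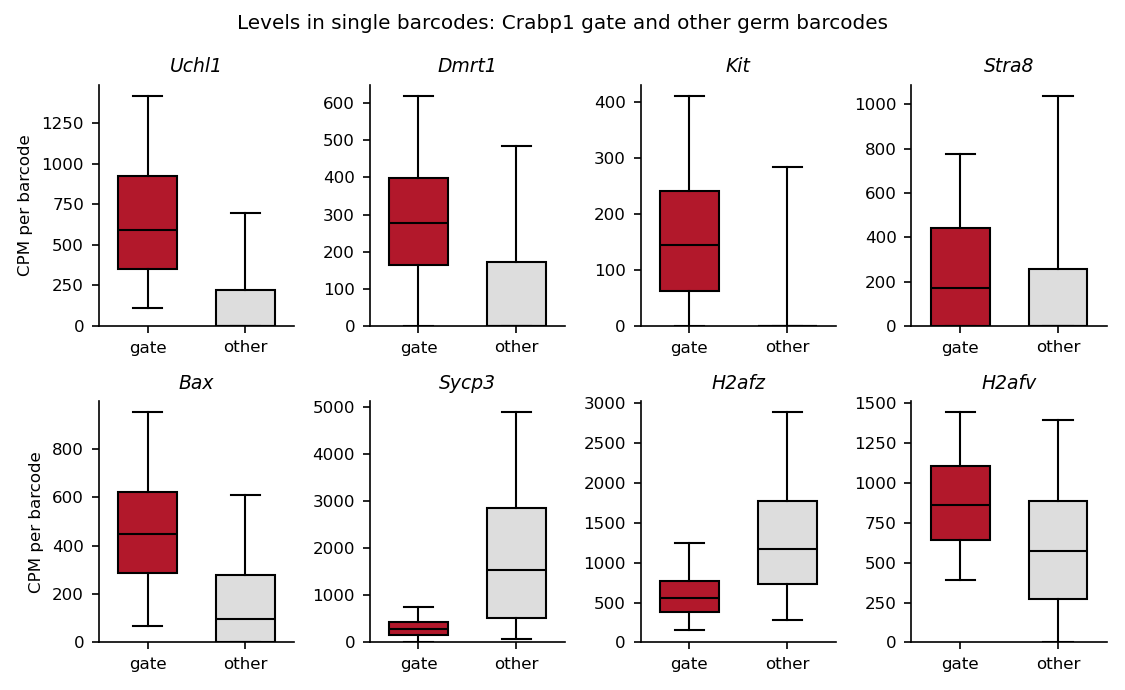
CPM in single barcodes of the Crabp1 gate (left, n = 334) and of all other germ barcodes (right, n = 4094). Boxes span the 25th to 75th percentile with the median as a line and whiskers reach the 5th and 95th percentile. The gate's medians of Uchl1 (594), Dmrt1 (278), Kit (144) and Bax (449) are higher, those of Sycp3 (277) and H2afz (555) lower, and the ranges overlap for every gene shown.

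Most genes of undifferentiated spermatogonia outside the rule were lower in the gate than in undifferentiated-type barcodes. Of 22 listed, 19 could be compared with the undifferentiated-type barcodes, where 13 were at least 2-fold lower in the gate and 2 at least 2-fold higher. Over all 13383 genes of that comparison, 1470 (11.0%) were 2-fold lower and 1057 (7.90%) 2-fold higher. The list's median log2 ratio was -2.32, against 0.02 for all genes. These genes belong to the same programme as the rule's genes, so the direction is not independent of the rule. Ret, the GDNF receptor, had no UMI in the gate, against 43.4 CPM in undifferentiated-type barcodes. With the gate set to 3 counts, it was at least 52.8-fold lower in the gate. Id4, an inhibitor of differentiation, had 9.58 against 53.6 CPM, Sdc4, a syndecan, 35.9 against 425 CPM, Upp1 2.46 against 43 CPM, and Nanos2, which keeps stem cells undifferentiated, no UMI against 3.41 CPM. Id4 was higher again in Sycp1-high barcodes, at 126 CPM.
Pou3f1 and Sox3, transcription factors of spermatogonial progenitors, were within 2-fold. Pou3f1 had a median of 65.6 CPM over gate barcodes, and its summed level was 92 CPM (82.4 to 102) against 120.5 CPM (108 to 134) in undifferentiated-type barcodes. In Crabp1-low barcodes it was 33.9 CPM (29.4 to 38.9), a ratio of 2.71 (2.27 to 3.25). Sox3 had 75, 98.3 and 39 CPM in these classes, and Foxo1, a target of PI3K signalling that stem cells need, had 85.7, 144 and 61.6 CPM. Pax7, known from rare mouse spermatogonial stem cells, was low throughout at 14.5 CPM in the gate and 6.49 CPM in undifferentiated-type barcodes, with 10 of its 53 gate UMIs in 1 barcode.

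The lowest ratios over the undifferentiated-type barcodes, besides those of the rule's Glis3 and Gfra1, were those of Foxf1, a forkhead factor (1.37 against 62.8 CPM), Kcnc2, a potassium channel (3.56, or 2.23 without the deep barcode, against 158), Large2 (1.92 against 61.1), Cdh4, a cadherin (3.56 against 62.5), Rin2 (6.02 against 95.6) and Med14, a Mediator subunit (4.65 against 72.4 CPM). Foxf1 and Kcnc2 were also low in Sycp1-high barcodes, at 0.531 and 3.19 CPM, while Cdh4 and Med14 had 16.6 and 33.4 CPM there.

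Genes of the retinoic acid pathway lay in both directions. Of 18 measured genes, 4 were 2-fold higher in the gate than in the other germ barcodes and 3 were 2-fold lower, near the 16% of all genes in each direction, with a median log2 ratio of 0.73. Crabp1 is one of the 4 and was chosen by the rule. The others were low: Rarb, a receptor and itself a retinoic acid target, had 8.76 CPM (5.99 to 12.4) against 2.48 CPM (1.96 to 3.10), Crabp2 5.48 against 1.78 CPM, and Stra6, a retinol importer, 2.74 against 1.05 CPM. The receptors Rara (25.2 against 13.5 CPM) and Rarg (9.86 against 5.44 CPM) were higher by less than 2-fold. Rarg was higher in undifferentiated-type barcodes, at 17.8 CPM, than in the gate, with a ratio of 0.555 (0.353 to 0.866).
Of the enzymes that make retinoic acid, Aldh1a2 had 32 CPM in the gate against 85.3 CPM, Rdh11 8.76 CPM, or 4.75 without the deep barcode, against 32.1 CPM and Aldh1a1 95.8 against 166 CPM. Aldh1a1 reached 3770.2 CPM in Leydig-type barcodes, and 1 gate barcode held 78 of its 350 UMIs. Aldh1a3 lay in the other direction, at 23 against 12.9 CPM, a ratio of 1.79 (1.39 to 2.26). Lrat, which stores retinol as an ester, had 1.37 against 7.38 CPM. Cyp26b1, which breaks retinoic acid down, had 26.3 CPM in the gate, 11.3 in undifferentiated-type and 38.8 CPM in Crabp1-low barcodes.

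Most meiotic genes were lower in the gate than in the other germ barcodes. Of 24 genes of meiotic entry and early prophase, none was 2-fold higher and 14 were 2-fold lower than in the other germ barcodes, with a median log2 ratio of -1.45. The share over all genes was 16% in each direction. Sycp1 is a gene of the rule, and Sycp3 and Sycp2 encode its partners in the synaptonemal complex, so their low levels follow the choice. The limit on Sycp1 also keeps the Sycp1-high barcodes, 3099 of the 4094 others, out of the gate. The direction of the whole list over the other germ barcodes is thus not independent of the rule. Sycp3 ran from 0 to 1299.9 CPM over gate barcodes with a median of 277, and from 0 to 8599 CPM over the others with a median of 1532. Meiob, which acts in strand exchange, had 8.21 against 165 CPM, Hormad1, an axis protein, 78.6 against 662 CPM, and Prdm9, which sets recombination sites, 17.2 against 47 CPM.
Genes within 2-fold were Smc1b, a meiotic cohesin, at 638 against 883 CPM, Tex15 at 508 against 505 CPM, Tex11, an X-linked crossover gene, at 191 against 174 CPM, and Taf7l, an X-linked subunit of TFIID, at 324 against 402 CPM. The list did not set the gate apart from undifferentiated-type barcodes, with 0 of 24 members 2-fold higher, 3 lower and a median log2 ratio of -0.10. Of all genes in that comparison, 7.90% were 2-fold higher and 11.0% lower. Against the Crabp1-low barcodes, 10 of 24 were 2-fold lower and none higher, with a median log2 ratio of -0.58 beside -0.00 for all genes. Over all 14417 genes of that comparison, 2038 (14.1%) were 2-fold lower and 872 (6.05%) higher. Among the 10, Meioc, a partner of YTHDC2 at meiotic entry, had 58.9 CPM in the gate and 181 CPM in Crabp1-low barcodes, and Gm4969, the mouse Meiosin gene, 4.11 and 19.6 CPM.

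Pachytene genes were lower still and depended on the deep barcode. Of 17 measured, 13 were 2-fold lower than in the other germ barcodes and 1 higher, with a median log2 ratio of -2.39. The share over all genes was 16% in each direction. The rule's limit on Sycp1 keeps the Sycp1-high barcodes, 3099 of the 4094 others, out of the gate, so the direction is not independent of the rule. Without the deep barcode 15 were lower and none higher, with a median of -2.98. Ldhc, the testis lactate dehydrogenase, had 184 CPM in the gate with it and 57 CPM without it, against 766 CPM in the others. Meig1, a meiosis-expressed gene, had 181 CPM with it, 77.9 without it, and 966 CPM in the others. Hspa2, the testis HSP70, had 87.6 CPM with it, 53.9 without it, and 548 CPM in the others. Ccna1, the meiotic cyclin, had a ratio of 2.21 with it and of 0.676 without it. Markers of spermatids were near 0, with a summed level of 11.0 CPM in the gate and 25.2 CPM in the others. Over the undifferentiated-type barcodes 3 of the 17 pachytene genes were 2-fold lower and 2 higher, beside 11.0% and 7.90% of all genes. The median log2 ratio there was -0.43. Over the Crabp1-low barcodes 10 were lower and 0 higher, beside 14.1% and 6.05% of all genes, with a median of -1.34.

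**Figure D3:**
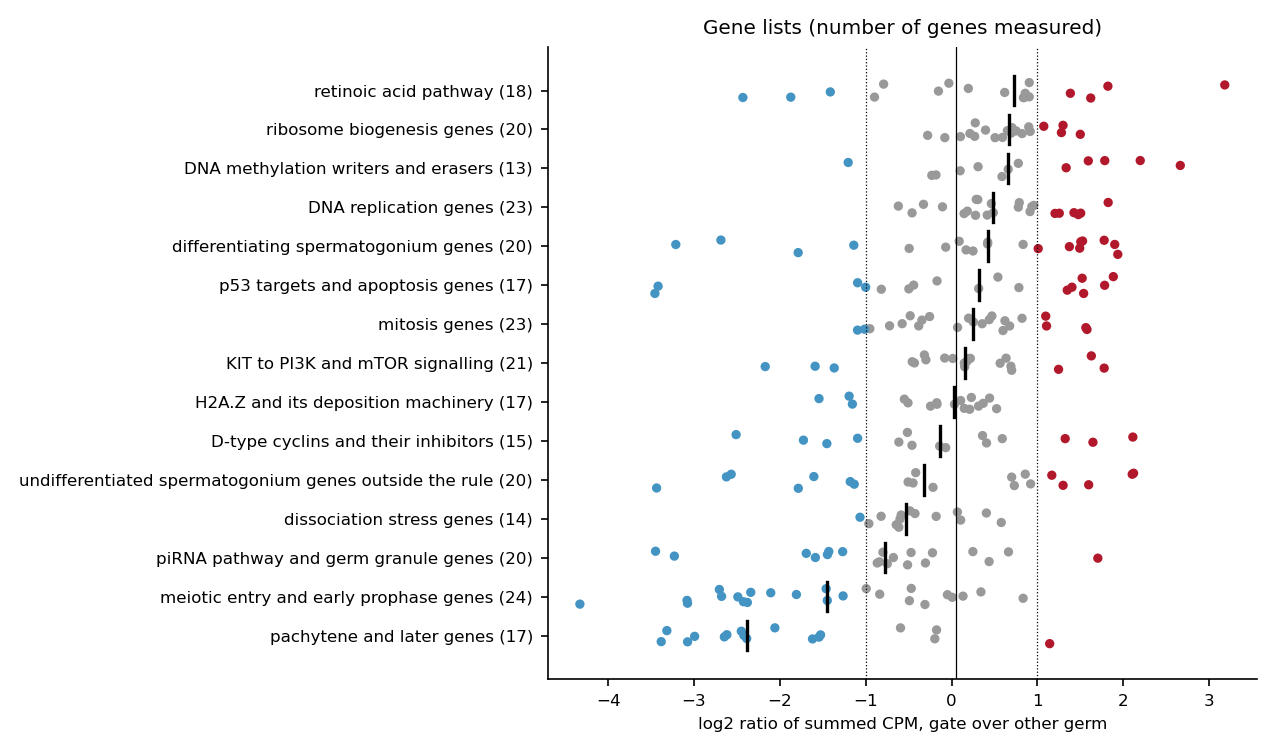
Log2 ratio of the summed CPM, Crabp1 gate over other germ barcodes, for each measured gene of 15 lists. Red points are at least 2-fold higher in the gate and blue points at least 2-fold lower, black bars are list medians, dotted lines mark 2-fold and the solid line is the median of all 17403 genes (0.05). The list medians run from -2.39 for pachytene genes to 0.73 for the retinoic acid pathway, whose largest ratio is that of the rule's Crabp1.

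Of 23 DNA replication genes, 6 were 2-fold higher than in the other germ barcodes, beside 16% of all genes, and none lower, with a median log2 ratio of 0.49. Mcm2, a subunit of the replicative helicase, had a median of 146 CPM over gate barcodes and of 0 in the others, and summed levels of 163 CPM (151 to 177) in the gate, 119 in undifferentiated-type, 93.8 in Crabp1-low and 24.2 CPM in Sycp1-high barcodes. Mcm4 (166 against 59.6 CPM), Tyms, the thymidylate synthase (61.3 against 22.8), the origin-licensing factor Cdc6 (38.1 against 13.4), Ung (112 against 46.9) and the flap nuclease Fen1 (118 against 51.2 CPM) were the others. Pcna did not follow them, at 192 against 206 CPM. Over the undifferentiated-type barcodes 3 of 23 were 2-fold higher, among them Cdc6 with a ratio of 2.59 (1.83 to 3.74), and 1 was lower. Of all genes there, 7.90% were higher and 11.0% lower, and the list's median log2 ratio was 0.46. Over the Crabp1-low barcodes none of the 23 passed 2-fold, beside 6.05% of all genes higher and 14.1% lower. The list's median log2 ratio there was 0.34.
Of 23 mitotic genes, 4 were 2-fold higher than in the other germ barcodes, 2 lower and 17 in between, with the higher ones near the 16% of all genes. Ccna2, the S and G2 cyclin, had 165 CPM (152 to 179) against 55.9 CPM (53.4 to 58.6), Aurkb, the kinase of the chromosomal passenger complex, 84.1 against 28.2 CPM, Plk1 61.9 against 28.7 CPM and Ccnb1 174 against 81.6 CPM. Cdk1 (119 against 253 CPM) and Cdc20 (213 against 429 CPM) were lower, and both were close to their levels in undifferentiated-type and Crabp1-low barcodes, with ratios between 0.902 and 1.17. Mki67 did not set the gate apart, at 255 against 243 CPM.

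Ccnd1 was higher and Ccnd2 and Ccnd3 lower in the gate than in undifferentiated-type barcodes. Ccnd1 had a median of 189 CPM over gate barcodes and a summed level of 205 CPM (191 to 220.3), against 76.8 CPM (67.1 to 87.5) in undifferentiated-type barcodes, a ratio of 2.67 (2.30 to 3.11). Ccnd2 had 41.1 CPM (34.8 to 48.2) in the gate against 284 CPM (265 to 304), a ratio of 0.145 (0.121 to 0.172). Ccnd3 had 35.9 against 122 CPM. Their partner Cdk6 stayed at 114 CPM in the gate and 123 in undifferentiated-type barcodes, and was 41.7 CPM in Crabp1-low and 9.96 CPM in Sycp1-high barcodes. Cdk4 had 108 against 212 CPM. Of the inhibitors, Cdkn2a was higher, with 321 CPM in the gate against 128 CPM in the other germ barcodes, while Cdkn1c (14.5 against 82.6 CPM), Cdkn2d (38.1 against 126 CPM) and Cdkn2c (22.5 against 61.4 CPM) were lower. Cdkn2c ran the other way over undifferentiated-type barcodes, with a ratio of 3.03 without the deep barcode. In that comparison the ratios were 1.43 for Cdkn2a, 0.760 for Cdkn2d, 0.216 for Cdkn1c and 0.191 for Cdkn1b.

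Both writers and erasers of DNA methylation were among the genes higher in the gate than in the other germ barcodes, and the eraser Tet2 was lower. Of 13 such genes, 5 were 2-fold higher than in the other germ barcodes and 1 lower, with a median log2 ratio of 0.66. The share over all genes was 16% in each direction. Over the undifferentiated-type barcodes 0 of 11 measured genes passed 2-fold, beside 7.90% of all genes higher and 11.0% lower, with a median of 0.28. Over the Crabp1-low barcodes 2 of 12 were higher and 1 lower, beside 6.05% and 14.1% of all genes. Dnmt3b, a de novo methyltransferase, had a median of 87.2 CPM over gate barcodes, and summed levels of 107 CPM (97 to 119) in the gate, 78.2 in undifferentiated-type, 46.2 in Crabp1-low and 10.3 CPM in Sycp1-high barcodes. Dnmt1, the maintenance enzyme, had 270.2, 205, 175 and 76.8 CPM in the same order, and the oxidase Tet3 113, 87.7, 62.1 and 24.7 CPM. All 3 were highest in the gate among the 4 classes. Tet1 had 25.2 CPM in the gate against 3.97 CPM in the others, but 24 of its 92 gate UMIs came from 1 barcode. Dnmt3l, the cofactor of fetal germ cells, had 6 UMIs in the gate. Tet2 had a ratio of 0.434 over the other germ barcodes.

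Of 20 ribosome biogenesis genes, 4 were 2-fold higher than in the other germ barcodes and none lower, with a median log2 ratio of 0.67. The share of higher ones was near the 16% of all genes. Over the undifferentiated-type barcodes none passed 2-fold, beside 7.90% of all genes higher and 11.0% lower, and the median was -0.05. Ncl, nucleolin, ran from 168 to 4493 CPM over gate barcodes with a median of 2003, and from 0 to 4779 CPM over the others with a median of 1126. Nop2, an rRNA methyltransferase, had 53.7 against 19 CPM and Fbl, fibrillarin, 464 against 189 CPM. Nhp2 (204 against 84.1 CPM) and the RNA polymerase I factor Ubtf (164 against 77.8 CPM) completed the 4.

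Of 21 genes from KIT to PI3K and mTOR, 3 were 2-fold higher than in the other germ barcodes and 3 lower, a share close to that of all genes. The higher ones were Kit, the translation repressor Eif4ebp1 (118 against 38.1 CPM) and Tsc2 (27.4 against 11.5 CPM). The lower ones were Ddit4, an mTOR inhibitor induced by stress (3.29 against 14.8 CPM), Pik3ca, the catalytic PI3K subunit (21.6 against 65.1 CPM), and Tsc1 (14.8 against 38.1 CPM). Ddit4 and Pik3ca were also lower than in undifferentiated-type barcodes, which had 34.1 and 73.4 CPM.

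Of 20 genes of the piRNA pathway and germ granule, 1 was 2-fold higher than in the other germ barcodes and 7 lower, with a median log2 ratio of -0.77. The share over all genes was 16% in each direction. The higher one was Dnd1, an RNA-binding protein of early germ cells, at 107 CPM (96.4 to 118) against 32.8 CPM (30.8 to 34.8). Among the lower ones were Mybl1, the transcription factor of pachytene piRNA precursors (8.76 against 95.6 CPM), Piwil1, the pachytene PIWI protein (15.1 against 141 CPM), and Tdrd5 (34 against 102 CPM). Fkbp6, a co-chaperone of the pathway, was within 2-fold, at 493 against 415 CPM. Over the undifferentiated-type barcodes 0 of the 20 were 2-fold higher and 5 lower, beside 7.90% and 11.0% of all genes. The median log2 ratio there was -0.53. Dnd1 had a ratio of 0.855 over these barcodes without the deep barcode.

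Of 17 p53 targets and apoptosis genes, 6 were 2-fold higher and 4 lower than in the other germ barcodes, with a median log2 ratio of 0.32. The share over all genes was 16% in each direction. Bax, which opens the mitochondrial outer membrane, ran from 0 to 2347 CPM over gate barcodes with a median of 449, and from 0 to 2398 CPM over the others with a median of 97.4. Summed, Bax had 467 CPM in the gate, 337 in undifferentiated-type, 287 in Crabp1-low and 127 CPM in Sycp1-high barcodes. The BH3-only gene Bcl2l11 had 50.7, 32.1, 28.3 and 8.90 CPM in the same order, and the p53 targets Ccng1 74.2, 31.1, 54.8 and 22.2 CPM and Phlda3 30.9, 10.9, 22.4 and 7.53 CPM. These 4 were highest in the gate. Fas and Eda2r rested on 7 and 6 gate UMIs. Other p53 targets went the other way: Pmaip1 had 2.74 CPM in the gate with a ratio of 0.0912 (0.0436 to 0.168), Cdkn1a, p21, 7.94 against 16.9 CPM and Mdm2 69.5 against 139 CPM. Trp63, a p53 family member, had 3 UMIs in the gate against 12.1 CPM in Sycp1-high barcodes. Against Crabp1-low barcodes, none of 14 measured genes was 2-fold higher in the gate and 3 were lower, beside 6.05% and 14.1% of all genes.

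Znhit1, the targeted gene, had 10 UMIs in the gate, a level of 2.74 CPM (1.31 to 5.04), against 3.24 CPM (2.64 to 3.94) in the other germ barcodes and 21.3 CPM (17.2 to 26) in Leydig-type barcodes. After thinning, a Znhit1 UMI was found in 0.906% of gate barcodes and 6.84% of Leydig-type barcodes. The unthinned shares were 2.99% and 18.5%. The gene lies on chromosome 5 from 136982164 to 136988021 on the minus strand (mm10), and a 3' count can lie outside a deleted part, so it does not check the deletion.
H2afz and H2afv, the genes of the H2A.Z forms H2A.Z.1 and H2A.Z.2, differed from the other germ barcodes in opposite directions. H2afz ran from 0 to 2625 CPM over gate barcodes with a median of 555, and from 0 to 9615 CPM over the other germ barcodes with a median of 1177. H2afv ran from 0 to 2524 CPM with a median of 861 in the gate, and from 0 to 3691 CPM with a median of 571 in the others. The summed level of H2afz was 632 CPM (606 to 658) in the gate, 767 in undifferentiated-type, 1067 in Crabp1-low and 1631 CPM in Sycp1-high barcodes. That of H2afv was 854 CPM (824 to 885) in the gate and 771, 582 and 622 CPM in those classes. The gate held 0.740 H2afz UMIs per H2afv UMI (exact interval 0.701 to 0.781), against 0.996 (0.939 to 1.06) in undifferentiated-type, 1.83 in Crabp1-low, 2.62 in Sycp1-high and 2.26 in Leydig-type barcodes. Counts of 2 genes are not compared per length, so the balance is read between classes and not as more RNA of one gene. Without the deep barcode, which held 187 of the H2afz UMIs, the gate level of H2afz was 592 CPM.
Of 17 genes of H2A.Z and its deposition machinery, none was 2-fold higher than in the other germ barcodes and 3 were lower, with a median log2 ratio of 0.03. The share of lower ones was near the 16% of all genes, and the median of all genes was 0.05. Besides H2afz, the lower ones were Dmap1 (21.9 against 63.9 CPM) and Ruvbl2 (37.8 against 84.1 CPM), subunits shared by the SRCAP and TIP60 complexes. Srcap, the catalytic subunit, had 92.3 against 79.7 CPM. Anp32e, the chaperone that removes H2A.Z, had 71.7 CPM in the gate against 203 CPM in undifferentiated-type barcodes, a ratio of 0.353 (0.304 to 0.408).

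**Figure D4:**
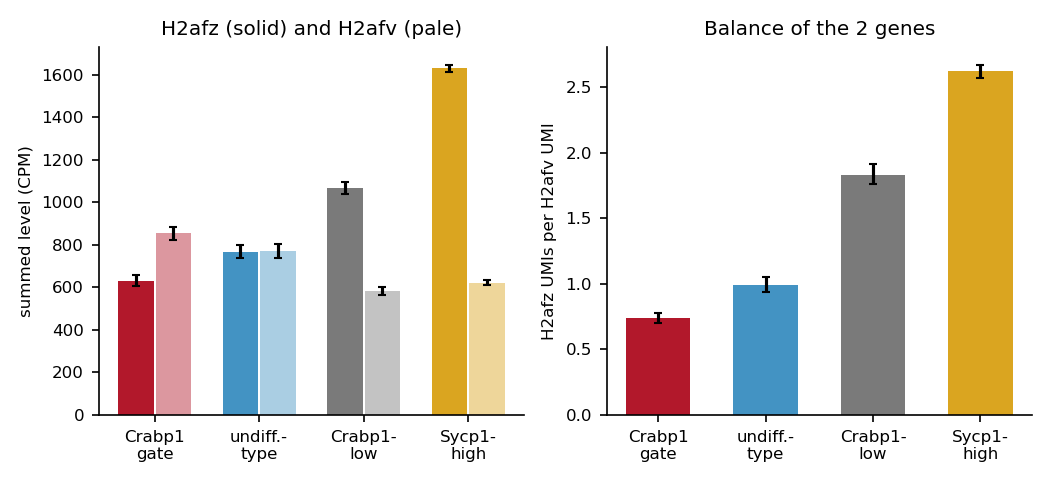
Left, summed levels in CPM of H2afz (solid bars) and H2afv (pale bars) in the Crabp1 gate and 3 other classes of germ barcodes, with exact Poisson 95% intervals. Right, H2afz UMIs per H2afv UMI with exact 95% intervals, which run from 0.740 in the gate to 2.62 in Sycp1-high barcodes.

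The genes with the largest ratios over the other germ barcodes were mostly carried by a minority of gate barcodes. Crabp1, the rule's gene, ranked among them. Sec14l5 had 57.5 CPM in the gate against 5.91 CPM, a ratio of 9.72 (7.94 to 11.9), with up to 35 UMIs in a barcode and a UMI in 11.7% of gate barcodes. Plaur, the urokinase receptor, had 92.5 against 11.5 CPM, with up to 51 UMIs in a barcode and a UMI in 15.6%. Ndst3, a heparan sulfate enzyme, had 79.7 against 11.6 CPM and up to 63 UMIs. Pgpep1l (149 against 21.1 CPM), Ptcra, the pre-T-cell receptor alpha chain (123 against 19.3 CPM), Asb18 (118 against 19.5 CPM) and Zfp119b, a zinc-finger gene (62.2 against 9.89 CPM), were detected in 19.2% to 29.9% of gate barcodes. At equal depth, after thinning to 3000 UMIs, Ptcra was detected in 16% of gate barcodes and 9.19%, 6.89% and 3.99% of undifferentiated-type, Crabp1-low and Sycp1-high barcodes, and in 1.28% of Leydig-type barcodes.

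Named non-coding transcripts with large ratios were Hnf4aos, Zfp286os, Gm11961 and Gm30015. Hnf4aos, annotated antisense to Hnf4a, had 329 CPM (311 to 349) in the gate, against 34.1 in undifferentiated-type, 91.4 in Crabp1-low and 21.8 CPM in Sycp1-high barcodes. It had a median of 0 and a highest value of 5595 CPM over gate barcodes, with a UMI in 24.6% of them. Hnf4a itself had 1 UMI in the gate. Zfp286os had a median of 35.4 and a highest value of 9662 CPM over gate barcodes. Its summed level was 486 CPM (464 to 509) in the gate, 43.7 in undifferentiated-type, 277 in Crabp1-low and 54.7 CPM in Sycp1-high barcodes, while Zfp286 had 18.6, 20.8, 18.7 and 7.79 CPM. Gm11961, also annotated antisense, was the most evenly held, with a UMI in 59.6% of gate barcodes and 305 against 48.2 CPM in the other germ barcodes. Gm30015 had 133 CPM in the gate, 10.6 in undifferentiated-type and 84.8 CPM in Crabp1-low barcodes. The sources used here do not say whether counting used strand, so reads of an antisense gene and its partner cannot be told apart.
Of 1080 lincRNA and antisense genes compared with the undifferentiated-type barcodes, 202 (18.7%) were 2-fold higher in the gate and 153 (14.2%) lower, beside 852 (6.94%) and 1312 (10.7%) of 12274 protein-coding genes. In the other comparisons more of these non-coding genes were lower than higher: 19.4% were higher and 27.9% lower over all other germ barcodes, 14.3% and 23.0% over Crabp1-low, and 23.6% and 31.3% over Sycp1-high barcodes.

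The genes of lowest ratio over the other germ barcodes were high in Sycp1-high barcodes. Tafa1 had 3 UMIs in the gate against 69.4 CPM in the other germ barcodes and 94.6 CPM in the Sycp1-high ones. Fsip2, of the sperm fibrous sheath, had 3.83 against 79.6 CPM, and the axonemal dyneins Dnah7a and Dnah7c 7.94 and 8.49 CPM against 125 and 126 CPM, which are near-identical genes whose counts can be split. Gm10505 (5.20 against 168 CPM) and A830018L16Rik (3.56 against 99.6 CPM) were also among them. The rule's limit on Sycp1 keeps Sycp1-high barcodes out of the gate.

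Against the Crabp1-low barcodes the gate was higher for Atp12a, a proton pump (50.1 against 8.26 CPM), Sec14l5 (8.60 CPM in Crabp1-low barcodes), Plaur (18.9 CPM), Ptcra (30.2 CPM), Adamts19 (60.8 against 17.2 CPM) and Dab1, a reelin adaptor (98 against 32.7 CPM). It was lower for pachytene transcripts such as Spag17 (8.76 CPM, or 4.19 without the deep barcode, against 78.6 CPM) and Pgam2 (14 CPM, or 2.51 without it, against 109 CPM). The Crabp1-low class was mixed. It held 26 barcodes in which the pachytene list took at least 1% of UMIs and 43 in which a somatic list did, against 1 and 2 in the gate, and 6.17% of it was called doublets. The part of this mixture in the differences was not tested.

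The gate was not uniform. The 333 barcodes without the deep one were divided by the summed UMIs of the 6 genes of the rule into 94 barcodes with 0, 177 with 1 to 3 and 62 with 4 to 7 UMIs. Their median depths were 7704, 9783 and 13962 UMIs, so depth moved with the bins, and its part in what follows was examined within one depth range only. Stra8 was 109, 267 and 449 CPM in the bins from 0 to 4 to 7 UMIs, Kit 128, 179.5 and 207 CPM, and Uchl1 459, 697 and 792 CPM. Stra8 was thus highest in the barcodes with most of the 6 undifferentiated genes. Its ratio of the last bin over the first was 4.12, and 4.48 within barcodes of 7000 to 14000 UMIs.
Pou3f1 went the same way, at 54.4, 91.9 and 131 CPM, as did Ccnd2 at 9.07, 30.8 and 91.7 CPM and Cdk6 at 67.4, 105 and 177 CPM. Other genes ran in the opposite direction. Zfp286os was 1039.7, 412 and 214 CPM, Gm30015 289, 105 and 70.1 CPM, the linker histone gene H1fx 935, 682 and 381 CPM and Esx1 188, 101 and 60.4 CPM. Ccnd1 was 253, 212 and 165 CPM, and Dmrtb1 73.9, 54.7 and 28 CPM. Ccnd2 and Ccnd1 differed between the bins in the direction in which undifferentiated-type barcodes differed from the gate, whereas Kit and Stra8, higher in the last bin, were lower in undifferentiated-type barcodes than in the gate.
Summed levels of gene lists are given in the same order of bins. Replication genes summed to 3006, 2869 and 2440 CPM, early prophase genes to 3788, 3574 and 3491 CPM, and mitotic genes to 4414, 3948 and 3948 CPM. Undifferentiated genes outside the rule summed to 268, 366 and 435 CPM. Somatic markers moved with the bins too: Leydig markers summed to 252, 304 and 470.3 CPM, macrophage markers to 31.1, 105 and 119 CPM, and myoid markers to 156, 271 and 88.5 CPM. Of the stress genes, Fos had 31.1 CPM in the bin with 0 UMIs and 77.7 CPM in the last, and Egr1 22 and 59.3 CPM, while the stress list summed to 2054, 2151 and 2285 CPM. Kit is also a Leydig gene, and the part of somatic RNA in these differences was not tested. Of 9281 genes with at least 20 UMIs over the first and last bin together, 918 (9.89%) were 2-fold higher and 384 (4.14%) lower in the last.

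**Figure D5:**
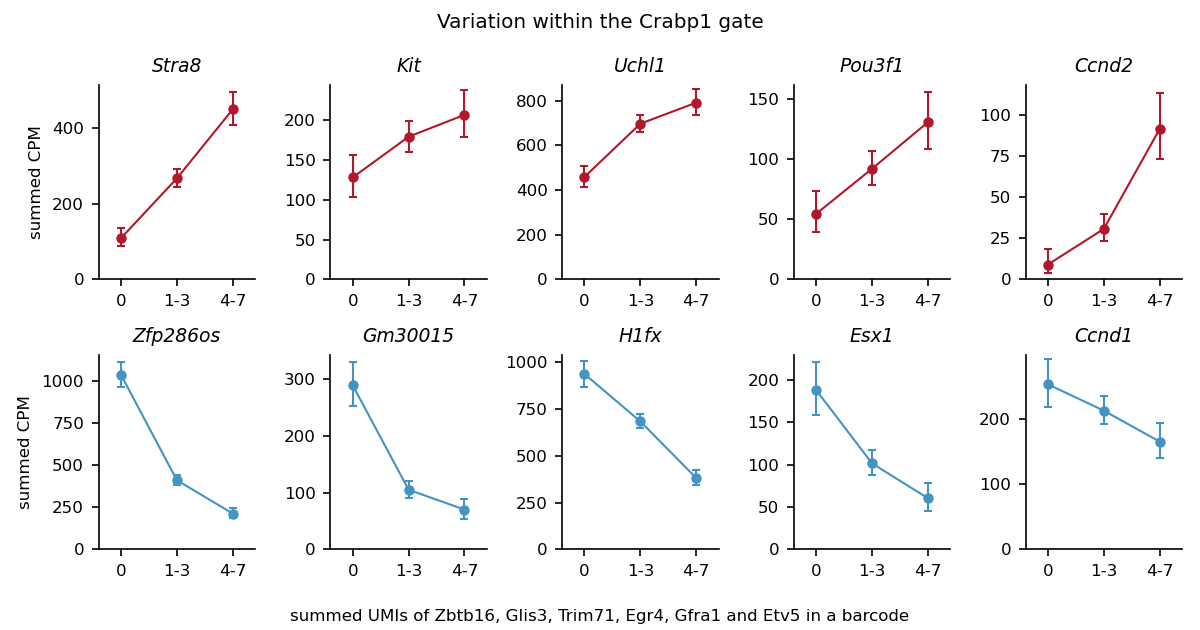
Summed CPM with exact Poisson 95% intervals of 10 genes in gate barcodes with 0, 1 to 3 and 4 to 7 summed UMIs of Zbtb16, Glis3, Trim71, Egr4, Gfra1 and Etv5 (94, 177 and 62 barcodes). Genes in red, such as Stra8 from 109 through 267 to 449 CPM, were higher with more of these UMIs, and genes in blue, such as Zfp286os, were lower.

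The gate was also divided by Crabp1 itself. In 3 groups of 111 barcodes from low to high Crabp1 CPM, Kit was 195, 183 and 134 CPM, Stra8 293, 274 and 265 CPM, Dmrt1 313, 317 and 287 CPM and Uchl1 642, 690 and 693 CPM. Depth moved with the groups, with medians of 12260, 9279 and 7341 UMIs. So did somatic markers, with Leydig markers at 545, 181 and 188 CPM, myoid markers at 285, 183 and 78.6 CPM and stromal markers at 106, 76.9 and 40.4 CPM. Their part in the lower Kit level was not tested. The 189 barcodes with Sycp1 above 0 and under 500 CPM had 335 CPM of Stra8 and 514 of H1fx, and the 135 barcodes from 500 CPM up had 205 CPM of Stra8 and 867 of H1fx. The 9 barcodes without Sycp1 were shallow, at a median of 4451 UMIs.

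Markers of somatic cells were measured beside these values. Leydig markers summed to 329.7 CPM in the gate, against 275.8 in undifferentiated-type, 1053 in Crabp1-low, 329.1 in Sycp1-high and 14327 CPM in Leydig-type barcodes. Sertoli markers summed to 1134 CPM in the gate and 1591 CPM in the other germ barcodes, with 0 of 9 members 2-fold different, and peritubular myoid markers to 195.2 and 186.1 CPM. Over the other germ barcodes none of 6 macrophage and 6 interstitial stromal markers passed 2-fold, and of the 4 measured endothelial markers Egfl7 was higher (29.8 against 14.5 CPM) while the defining genes Cdh5 and Vwf held 2 and 4 UMIs. The share over all genes in that comparison was 16% in each direction. Over undifferentiated-type barcodes 2 macrophage, 1 stromal and 3 of 5 myoid markers were 2-fold higher in the gate, the myoid markers with a summed ratio of 2.42. Of all genes, 7.90% were 2-fold higher there. Over Crabp1-low barcodes 6 of 6 Leydig, 4 of 9 Sertoli, 3 of 6 macrophage and 4 of 6 stromal markers were 2-fold lower in the gate, beside 14.1% of all genes. Of 14 dissociation stress genes, none was 2-fold higher and 1 lower than in the other germ barcodes, beside 16% of all genes each way, with a median log2 ratio of -0.54. Over Crabp1-low barcodes 8 of these stress genes were 2-fold lower, beside 14.1% of all genes, with a median of -1.24. The part of somatic and stress genes in the differences between classes was not tested. X-linked genes took 2.07% of gate UMIs and 1.92% of those of the other germ barcodes, and Y-linked genes 0.0891% and 0.0816%.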

How the data were processed

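Testis cells of Znhit1 knockout and CTRL mice at postnatal days 35 and 16 were captured on the 10x Chromium v3.1 3' chemistry, per the labels' protocols. Whole-number UMI counts for each gene in each barcode are what the authors deposited. The matrix header names Cell Ranger 7.1.0, and the submitters' processing notes also list STAR and mm10. The sources used here do not say how cells were called. Counts were summed over the barcodes of a class and scaled to CPM. Levels have exact Poisson, ratios exact conditional binomial and shares Clopper-Pearson 95% intervals, all for counting error only. A count of 0 was set to 3 in ratios, and genes needed 20 UMIs over both classes. Free RNA was not subtracted. Scrublet (scanpy 1.11.5) marked 235 of 8121 barcodes (2.89%) as doublets, which were kept. Thinning drew 3000 UMIs per barcode and left out 3 gate and 267 other germ barcodes. Annotation was GENCODE M21, which matched 32235 of 32285 genes. Leydig-type barcodes had fewer than 4 UMIs of Ddx4 and Dazl and at least 1% of UMIs from Leydig markers. The ratio calculation was run on simulated Poisson counts without variation between barcodes. The intervals assume the same model, so that run checks the calculation and not the spread between barcodes. The scripts ran on Python 3.11.15 with scipy 1.17.1, numpy 2.4.6, pandas 2.3.3 and, for plots, matplotlib 3.10.9.

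The members, gene lists and tests were chosen with earlier results of these data known. The text took Znhit1, H2afz, H2afv, the genes of the rule, Uchl1, Dmrt1, Kit and Stra8; from each list its highest member by CPM and the 2 largest ratios each way past 1.5-fold; the 12 largest each way over the other germ barcodes, with at least 50 CPM in the higher class; and the 8 largest each way over the undifferentiated-type and Crabp1-low barcodes. Not every such gene is described, and some items are not reported here. Other list members, and Hnf4a, Zfp286, H1fx and Hspb9, were chosen after their values were seen. Alternatives changed the filters, each threshold of the gate, doublets, depth, weighting, scaling and the minimum count.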

Additional observations from a re-analysis of the deposited data

How the results depend on the processing

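No paired analysis was possible because counts of 1 library were used. The gate held 124 barcodes with at least 5 Crabp1 UMIs and 199 with Sycp1 under 500 CPM, and stayed within 1.5 times of 334 under the other 10 settings. With 1 UMI as the minimum, 8680 genes were 2-fold higher over the other germ barcodes, 3667 over Crabp1-low and 3078 over undifferentiated-type barcodes (3703 lower); with 100 UMIs, 1698, 279 (1034 lower) and 308 (592 lower). Thinned, 480 were higher and 1108 lower over Crabp1-low barcodes, and 678 and 875 over undifferentiated-type barcodes. With the 6 genes under 4 UMIs, 673 were higher over undifferentiated-type barcodes.
List medians (log2) moved for Sertoli markers to -0.59 at 20% mitochondrial UMIs, -0.31 with 2 Crabp1 UMIs and -0.63 with equal weights, macrophage markers to -1.09 without doublets and -0.81 with equal weights, Leydig markers to -0.18 with Sycp1 under 500 CPM, stromal markers to -0.62 with 5 Crabp1 UMIs and -0.53 with no limit on the 6 genes, stress genes to -0.94 with 5 Crabp1 UMIs and -0.88 without doublets, and pachytene genes to -2.67 with 5 Crabp1 UMIs, -2.98 without the deep barcode and -2.99 without mixed barcodes. The last 2 settings and the depth range were chosen after seeing the data.
Within the gate, the ratio of the last bin over the first moved for Stra8 to 3.22 and Gm30015 to 0.348 at 20% mitochondrial UMIs, Zfp286os to 0.304 and Gm30015 to 0.104 with 5 Crabp1 UMIs, Gm30015 to 0.340 with Sycp1 under 500 CPM, and Zfp286os to 0.103 within 7000 to 14000 UMIs. Ratios reversed for Ccna1 (0.298 with 5 Crabp1 UMIs, 0.676 without the deep barcode, 0.670 without mixed barcodes), Glis3 (1.37), Foxf1 (1.51), Kcnc2 (1.09), Large2 (1.89) and Rin2 (1.73) with no limit on the 6 genes, which lets undifferentiated-type barcodes in, and Cdh5 (1.51) and Gapdhs (1.33) when thinned. The other causes were not tested. Of 46 named genes 2-fold higher, 39 kept that call under every alternative, as did 38 of 55 lower ones. Depth limits genes below about 20 UMIs.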

Other observations

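Some genes had a large share of their gate UMIs in 1 barcode. Among 9275 genes with at least 40 UMIs and 10 CPM in the 331 gate barcodes of unmixed content, 145 (1.56%) had at least 30% of their UMIs in 1 barcode, and 107 different barcodes held them. The same count was 66 of 8827 genes (0.748%) in undifferentiated-type, 45 of 9724 (0.463%) in Crabp1-low and 3 of 8259 (0.0363%) in Leydig-type barcodes, over 184, 741 and 470 barcodes. The classes differ in the number of barcodes and in depth, so the shares are given side by side only. Gm42884, annotated antisense, had 124 of 133 gate UMIs in 1 barcode and Gm16145 43 of 44. Cntnap3, a neuronal adhesion gene, had 39 of 41 in 1 barcode. These genes were chosen after their values were seen, and the cause was not tested.

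Hspb9, a testis small heat shock gene, had 50.4 CPM in the gate with the deep barcode and 3.07 CPM without it, against 46.7 CPM in the other germ barcodes. That barcode held 173 of its 184 gate UMIs.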
